A study of Mus musculus with 6 samples.

Results

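Bidirectional promoter long non-coding RNAs (lncRNAs) were examined in bulk RNA sequencing of the mouse retinal pigment epithelium (RPE), the pigmented cell layer that supports the photoreceptors. The members are all genes that the deposited table classes as bidirectional_promoter_lncRNA, 165 of 54532 genes. Each member was paired with a partner, the protein-coding gene on the opposite strand whose 5′ end lies nearest to the member's 5′ end. The 165 members had 164 different partners, because Gm27045 and 1700030M09Rik shared 1700018B08Rik. The 3 wild-type (WT) mice were of the Jackson strain 129S1/SvlmJ, and the 3 Abca4-/- (Abca4KO) mice were of the Jackson line Abca4tm1Ght/J. Both lines carried the leucine form of Rpe65 and were kept on a standard diet with 12 h of light a day, and the RPE was taken 5 h after the lights came on. The labels give no age and no treatment. Each library came from its own mouse. The knockout allele acts in the whole animal and came with its own line, so genotype and line cannot be told apart.

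A promoter at a CpG island often starts transcription in both directions. One direction gives an mRNA, and the other gives a non-coding transcript that starts close by on the opposite strand and usually stays at a low level. Some of these lncRNAs act on the neighbouring gene, some act elsewhere, and for many no role is known. In developing eye and brain, several regulators of cell fate carry such a divergent transcript.

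The members lay close to their partners. Of the 165 pairs, 151 had 5′ ends less than 1000 bases apart, and 92 of these had them less than 200 bases apart. The median distance was 165 bases and the range 1 to 247978 bases. In 100 pairs the partner started upstream of the member's start, head to head, and in 65 it started inside or beyond the member. The bodies of 63 pairs shared bases. Shared bases were counted over whole gene spans, introns included, and overlap of exons was not examined. The longest distance belonged to Gm48814 and Sorl1, and the distance was over 2000 bases for 7 members in all, so for these the class name does not describe a start shared with the partner found by the nearest-5′-end rule. All 165 members had the same coordinates, class and exonic length in the GENCODE M21 annotation. Their exonic length had a median of 1245 bases (240 to 8887), 112 had a single annotated transcript, and 44 had only single-exon transcripts.

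**Figure D1:**
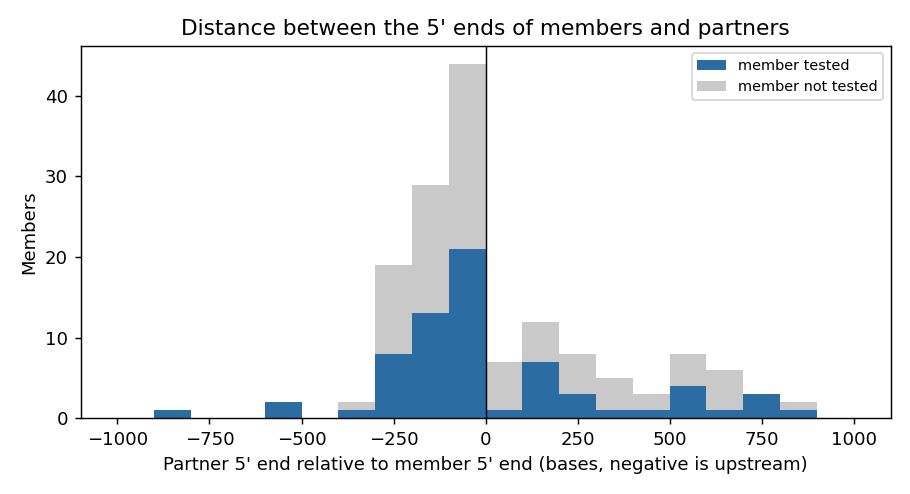
Distance in bases from each member's 5′ end to its partner's 5′ end, drawn for the 151 members within 1000 bases, by whether the member was tested. Most partners start upstream of the member, 92 of them within 300 bases.

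The members were spread unevenly over the genome. Chromosome 12 held 30 (1.21% of its genes), and chromosomes 10 and 8 held 23 each (0.875% and 0.906%). Chromosome 15 held 15 (0.810%). Chromosome 7 held 14, but this was only 0.297% of its 4714 genes. None lay on chromosomes 1, 3, 5, 19, X or Y, so none lay on chromosome 3, which carries Abca4. The class is the annotation's, and other divergent transcripts stand in the table under other classes, such as most of the eye list described last.

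Promoter sequences are shown for 3 partners to make the geometry visible: in these, the deposited 5′ ends of both genes fall inside a single window of 300 bases. The windows come from RefSeq on GRCm38.p6, the same assembly as mm10, and reach from 250 bases before to 50 after the RefSeq start of the partner, read 5′ to 3′ on the partner's strand. Cep83 is the partner of Cep83os, the member that passed the test of the genotypes. Ankrd11 is the partner of 2810013P06Rik, the member with the highest mean CPM (its read count scaled to a common library size). Ap3b1 is the partner of Gm9776. The windows are chr10:94688540-94688839 on the plus strand for Cep83, chr8:123042235-123042534 on the minus strand for Ankrd11 and chr13:94358710-94359009 on the plus strand for Ap3b1. Capitals mark matches to the searched motifs on either strand. The motif searched for Sp1 was GGGCGG and that for NF-Y was CCAAT. For the ETS family it was CCGGAAG and for YY1 it was AAGATGGC. The TATA box was searched as TATAAA, and NRF1 by its palindromic motif.
Cep83: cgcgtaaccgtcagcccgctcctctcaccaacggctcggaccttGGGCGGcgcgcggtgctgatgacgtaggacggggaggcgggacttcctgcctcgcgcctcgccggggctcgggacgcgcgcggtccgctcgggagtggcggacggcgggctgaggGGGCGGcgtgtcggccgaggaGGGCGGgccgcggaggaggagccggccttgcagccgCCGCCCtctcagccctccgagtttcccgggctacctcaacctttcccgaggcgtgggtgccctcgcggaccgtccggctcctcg
Ankrd11: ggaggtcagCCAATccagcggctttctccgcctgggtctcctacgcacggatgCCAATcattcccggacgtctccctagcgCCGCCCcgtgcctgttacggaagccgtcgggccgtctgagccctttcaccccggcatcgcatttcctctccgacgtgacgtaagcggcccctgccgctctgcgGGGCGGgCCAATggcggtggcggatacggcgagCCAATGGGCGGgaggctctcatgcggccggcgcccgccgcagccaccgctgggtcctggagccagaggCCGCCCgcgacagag
Ap3b1: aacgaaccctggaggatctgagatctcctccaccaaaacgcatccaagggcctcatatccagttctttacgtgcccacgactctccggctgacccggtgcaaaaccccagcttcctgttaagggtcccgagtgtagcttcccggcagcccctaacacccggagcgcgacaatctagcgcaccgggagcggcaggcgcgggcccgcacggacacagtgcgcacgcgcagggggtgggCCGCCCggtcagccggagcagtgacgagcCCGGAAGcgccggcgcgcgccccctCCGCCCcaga

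Counted from 1 at the 5′ end of the window, Cep83os starts at position 37 and reads away from Cep83, whose deposited start is at position 115. The Cep83 window holds 4 Sp1 matches, 1 of them on the opposite strand, and none of the other motifs. In the Ankrd11 window, 2810013P06Rik starts at position 69 and Ankrd11 at position 258. That window holds 4 Sp1 and 4 NF-Y matches, of which 1 of each stand side by side at positions 218 to 228. In the Ap3b1 window, Gm9776 starts at position 214 and Ap3b1 at position 251, with 2 Sp1 matches and 1 ETS match. All 3 windows were rich in CpG: they held 46, 36 and 32 CpG sites, with a GC content of 75.7%, 70.3% and 67.7%. A match is a run of letters, not evidence that a factor binds.

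For partners of tested members, 59 of 72 (81.9%) had a promoter in the RefSeq table. Their windows had a median GC content of 68.3%, against 52.7% over all 32851 promoters in the table, and a median of 29 CpG sites, against 7. The observed over expected ratio of CpG had a median of 0.891, against 0.384. The Sp1 motif was found in 74.6% of them and in 35.7% of all promoters, and the ETS motif in 25.4% and 8.86%. The YY1 motif was found in 10.2% and 2.75%, the NF-Y motif in 35.6% and 37.4%, and the TATA box in 5.08% and 13.6%. The NRF1 motif was found in 1.69% and 0.971%. These shares describe the partners' promoters and were not tested. The 2 sets are also unlike: 69 of the 72 partners had enough counts to be tested, while all promoters were taken whatever the level of the gene. The contrasts therefore cannot be tied to a bidirectional start. Over all 164 partners only 79.9% matched, and of the members themselves 52.7%, so the same description over those sets is void.

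Total counts lay between 17047286 and 19841307 per library, and 3 counts, the limit that a count of 0 allows, were 0.152 to 0.174 CPM (counting error only). Abca4, the targeted gene, held 932 to 968 CPM in the WT libraries and 32.6 to 39.1 CPM in the Abca4KO libraries, so the libraries matched their labels. RPE marker genes summed to between 34568 and 44386 CPM and none was at 0. Of 8 lists of cell type and interferon markers, none held a gene past the threshold. WT replicate 2 stood apart in the 10 interferon response genes, at 1981 CPM against 182 to 270.0 CPM in the others. Rod markers ran from 688 to 3403 CPM, macrophage and microglia markers from 1025 to 2648 CPM, and endothelial markers from 313 to 516 CPM in WT and from 511 to 802 CPM in Abca4KO. Müller glia and astrocyte markers held 5527 to 6393 CPM in WT and 5282 to 5449 CPM in Abca4KO, without overlap. Fibroblast and sclera markers held 1416 to 1697 CPM in WT and 1728 to 2161 CPM in Abca4KO, also without overlap, with a log2 fold change above 0 for 8 of 8 genes. It was also above 0 for 10 of 10 endothelial and 9 of 10 rod genes. For Müller glia and astrocyte genes it was above 0 for 0 of 6, and for interferon response genes for 0 of 10. Melanocyte markers held 3412 to 5201 CPM in WT and 5055 to 6410 CPM in Abca4KO. Rlbp1 stands in both the RPE and the Müller glia list, and Mlana and Pmel in both the RPE and the melanocyte list. These sums therefore do not measure the other cells apart from the RPE. The part of these other cells in the results was not tested, and in bulk RNA fewer cells of a type and less RNA per cell cannot be told apart.

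Most members were scarce in the RPE. A count was seen in all 6 libraries for 83 members (50.3%), in some libraries for 58 and in none for 24. The filter on low counts, which keeps genes with about 10 counts or more in at least 3 libraries, passed 72 members (43.6%). It passed 31.8% of all genes, 67.0% of protein-coding genes, 33.2% of processed transcripts, 17.02% of antisense genes and 9.55% of lincRNAs. The 93 members that did not pass held 3.45% of the 31063 counts of all members, and the highest sum of one over the 6 libraries was 53. The tested members had a median length of 2231.5 bases and the others 854 bases. The 12 members with the most CPM took 50.6% of the members' counts, and 20 took 69.5%.

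The members' summed level did not separate the genotypes. The sum of all 165 members was 270.9, 249 and 293 CPM in WT replicates 1, 2 and 3 and 294, 271 and 280 CPM in Abca4KO replicates 1, 2 and 3, so the groups overlapped. The means were 271 ± 22.2 CPM (SD, n = 3) in WT and 282 ± 11.7 CPM (SD, n = 3) in Abca4KO. This was between 0.0243% and 0.0299% of the library's counts. Members with at least 1 count numbered 117, 101 and 117 in WT and 120, 102 and 119 in Abca4KO. Both libraries numbered 2 were the lowest for the members, as they were over all genes, where they held a count for 22330 and 22329 genes and the other libraries for 22884 to 23774.

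Per kilobase of the deposited gene length, the members stood below their partners. Both genes of a pair were tested in 69 pairs, and the partner had more CPM per kilobase in 64 of these. The median level of the partner was 6.45-fold that of the member, a median log2 difference of -2.69. The median was between -2.90 and -2.46 in each of the 6 libraries, with no separation of the genotypes (WT -2.46, -2.71 and -2.73, Abca4KO -2.58, -2.90 and -2.72). The widest gap was that of Gm26684 and Enpp2, which encodes the secreted enzyme autotaxin: the partner held 588 CPM per kilobase and the member 0.132, a ratio of 4472.

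In 5 pairs the member stood above its partner per kilobase. Ndufb1-ps held 10.5 CPM per kilobase and Cpsf2, a subunit of the mRNA cleavage and polyadenylation machinery, 5.09, a ratio of 2.07. The member 2810013P06Rik held 12.5 and Ankrd11, a chromatin regulator, 6.53, a ratio of 1.91. For Gm34655, chosen here after its values were seen, and Ulk4 the ratio was 1.98. Cep83os exceeded Cep83 by 1.35-fold over the 6 libraries. That mean pools 7.85 CPM of Cep83os in WT with 23.1 CPM in Abca4KO, so it does not describe either genotype alone. The member 2310010J17Rik exceeded Picalm, a clathrin assembly protein, by 1.07-fold. Ndufb1-ps shares bases with Cpsf2. No source used here gives the use of strand in counting, so reads from the shared bases of such a pair cannot be told apart.

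**Figure D2:**
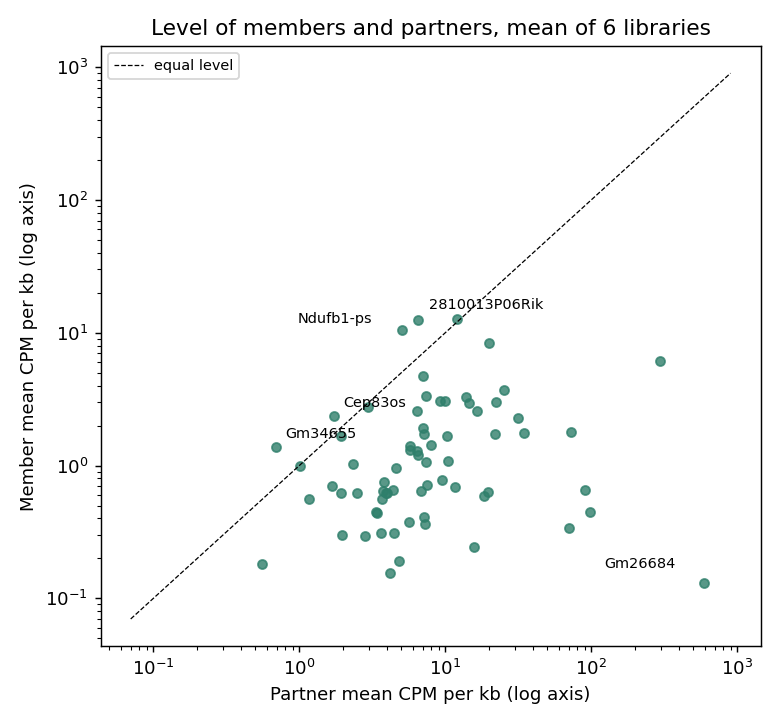
Mean level over 6 libraries in CPM per kilobase of gene length, partner on the x axis and member on the y axis, both on log scales, for the 69 pairs in which both were tested. In 64 pairs the point lies below the line of equal levels, and 4 of the 5 members above their partners are labelled (2310010J17Rik, near the line, is not), as is Gm26684, the lowest relative to its partner.

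Of the 72 tested members, 1 passed the test of Abca4KO against WT (edgeR quasi-likelihood, Benjamini-Hochberg adjusted p under 0.05), which was Cep83os, higher in Abca4KO. Over all 17340 tested genes 8 passed, which is 0.0461%, 6 higher (0.0346%) and 2 lower (0.0115%) in Abca4KO. At an unadjusted p under 0.05, 4 of 72 members (5.56%) stood out, 1 higher and 3 lower, against 7.02% of all tested genes (3.15% higher and 3.87% lower). The genotypes did not overlap in CPM for 11 members (15.3%), 4 with Abca4KO above and 7 below, against 12.8% of all tested genes (5.93% above and 6.85% below). Both shares lie near the background, so they are no result about the members. Both also count Gm36246, and the second 1500026H17Rik, which passed the filter only through 1 genotype. AC140278.1, counted in both as well, reached the filter's level in 3 WT libraries and 1 Abca4KO library. The log2 fold change was above 0 for 33 members and below 0 for 39, with a median of -0.04, against a median of -0.01 and a share above 0 of 47.8% over all tested genes. The standard error of a member's log2 fold change had a median of 0.44, against 0.18 over all genes, so smaller differences could not be resolved for members at this depth.

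Cep83os (ENSMUSG00000097164, chr10:94671025-94688576 on the minus strand, 3 exons) held 7.02, 9.29 and 7.24 CPM in WT replicates 1 to 3 and 23.4, 22.8 and 23.1 CPM in Abca4KO. All Abca4KO libraries stood above all WT libraries, and the spread within Abca4KO was small. The WT mean was 7.85 ± 1.25 CPM (SD, n = 3) and that of Abca4KO 23.1 ± 0.293 CPM (SD, n = 3). Its log2 fold change was 1.56 with a 95% interval of 1.20 to 1.91 (edgeR adjusted p = 0.0268). The fibroblast and sclera markers were also higher in each Abca4KO library, and 10 of 10 endothelial markers had a log2 fold change above 0. Müller glia and astrocyte markers were lower in each Abca4KO library. The part of these cells in the difference of Cep83os was not tested. Gm49167, a gene on the other strand with 31 counts in all, shares 2872 bases of gene span with Cep83os, which held 1740 counts. The effect of this overlap on the counts of Cep83os was not tested. Without any one library the log2 fold change was 1.48 to 1.69. The adjusted p was then 0.00509 without WT replicate 2 and reached at most 0.324, and it was under 0.05 in 1 of these 6 fits.

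Cep83, which starts 78 bases from Cep83os in the promoter shown above and encodes a protein of the centriole's distal appendages needed to start a cilium, did not pass the test. It held 12.4, 12.3 and 10.02 CPM in WT and 14.2, 12.4 and 14.5 CPM in Abca4KO, so the genotypes did not overlap but lay close. In log2 terms Cep83 differed by 0.24 (SE 0.15), with an interval of -0.12 to 0.60 (edgeR adjusted p = 0.808), which leaves out a change of the size seen for Cep83os. The log2 ratio of Cep83os to Cep83 was -0.82, -0.41 and -0.47 in WT and 0.72, 0.87 and 0.67 in Abca4KO. The lncRNA was thus below its partner in CPM in each WT library and above it in each Abca4KO library. The ratio changed by 1.32 ± 0.24 (SE) on the log2 scale. It did not pass limma's test over all 14310 pairs of genes (unadjusted p = 0.00076, adjusted p = 0.453), where 0.0349% of pairs passed. These pairs hold each tested gene with its nearest opposite-strand protein-coding gene at any distance, where that gene was tested too.

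**Figure D3:**
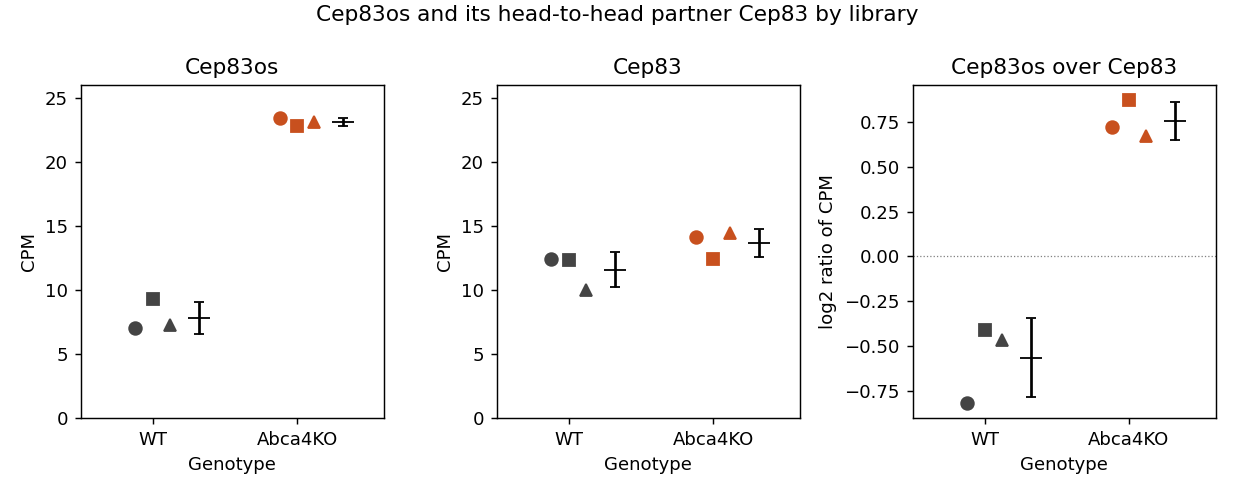
CPM of Cep83os and Cep83 in each library, with the mean and SD of each genotype (n = 3). Cep83os lies between 7.02 and 9.29 CPM in WT and between 22.8 and 23.4 CPM in Abca4KO, while Cep83 stays between 10.02 and 14.5 CPM in all 6 libraries.

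The genes around Cep83os did not pass the test either. Within 1000000 bases on each side 16 other genes were tested, 0 passed at the adjusted threshold and 2 had an unadjusted p under 0.05 (edgeR, against 7.02% of all genes). These were Ntn4, a netrin of basement membranes, at a log2 fold change of -0.26 (unadjusted p = 0.0477), and Ndufa12, a subunit of mitochondrial complex I, at -0.74 (unadjusted p = 0.00107, adjusted p = 0.393). Both were named after their values were seen. The mean of Ndufa12 was 33.1 CPM in WT and 19.8 CPM in Abca4KO, opposite in direction to Cep83os. The highest log2 fold change among the 16 was 0.27.

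Several named members have partners that regulate chromatin, transcription and RNA processing. None of these members or partners passed the test. The member 2810013P06Rik (ENSMUSG00000099881, chr8:123042466-123044602) held 27.7, 24.2 and 23.3 CPM in WT and 29.4, 29.2 and 26.2 CPM in Abca4KO, overlapping in 1 library of each genotype. Ankrd11 held 108, 120.0 and 112 CPM in WT and 109, 98.97 and 101 CPM in Abca4KO, which also overlapped. The log2 fold changes were 0.17 ± 0.11 (SE) and -0.14 ± 0.08 (edgeR adjusted p = 0.807 and 0.774). The log2 ratio of member to partner was higher in all Abca4KO libraries than in all WT libraries, by 0.31 ± 0.14 (SE) in the mean (limma adjusted p = 0.799).

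Tead1, the DNA-binding partner of the Hippo pathway's coactivators, and its member 2310014F06Rik both had lower means in Abca4KO. Tead1 held 146, 124 and 142 CPM in WT and 123.4, 103 and 107 CPM in Abca4KO. Every Abca4KO library lay below every WT library, though the nearest values differed by little. This was a log2 fold change of -0.30 ± 0.10 (SE), with an edgeR adjusted p of 0.639. The member held 10.5, 7.52 and 11.3 CPM in WT and 6.80, 8.57 and 7.03 CPM in Abca4KO, with overlap, at -0.39 ± 0.22 (SE, adjusted p = 0.768). Tead1 and 2310014F06Rik share 764 bases. Yap1, which encodes the coactivator that binds Tead1 and is the partner of Gm45494, was named after its values were seen: it held 217, 230.0 and 214 CPM in WT and 188, 189 and 189 CPM in Abca4KO, without overlap, at -0.22 ± 0.07 (SE, edgeR adjusted p = 0.616). Gm45494 did not share this direction, with a log2 fold change of 0.09 ± 0.40 (SE).

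Brpf3, a scaffold of histone acetyltransferase complexes, and its member AC140278.1 were uneven within Abca4KO. AC140278.1 held 0.995, 1.93 and 1.52 CPM in WT and 0.761, 0.103 and 0.349 CPM in Abca4KO, 2 to 36 counts per library, so the groups did not overlap. It reached the level of the low-count filter in 3 WT libraries and 1 Abca4KO library, so it passed through WT, where it is high. Its log2 fold change of -1.85 is given as a description with no test. Brpf3 held 28.7, 33.1 and 32.2 CPM in WT and 37.6, 21.3 and 24.6 CPM in Abca4KO. Abca4KO replicate 1 was the highest Abca4KO library for both genes, and it was the highest of all 6 for Brpf3. The pair shares 534 bases.

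Cdc5l, a spliceosome component, and B230354K17Rik overlapped between genotypes, with log2 fold changes of -0.01 ± 0.13 and -0.10 ± 0.16 (SE). Cdc5l has near-identical copies in the annotation, such as Gm9030 with 99 counts, so its counts are uncertain to that extent. Cpsf2 and Ndufb1-ps also overlapped, at -0.09 ± 0.13 and -0.17 ± 0.20 (SE).

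A second group of partners works in membrane traffic, which the RPE uses to take up and degrade shed outer segments. None of these partners or members passed the test. Ap3b1, a subunit of the AP-3 adaptor that sorts cargo to lysosomes and melanosomes, held 65.2, 81.0 and 79.97 CPM in WT and 72.2, 78.7 and 75.8 CPM in Abca4KO. Gm9776, which starts 37 bases away in the promoter shown above, held 7.33, 7.999 and 8.55 CPM in WT and 8.12, 7.17 and 8.25 CPM in Abca4KO. Both overlapped fully, with log2 fold changes of 0.00 (interval -0.24 to 0.25) and -0.02 (interval -0.42 to 0.38), and no bases are shared between them.

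Rab20, a small GTPase of endosomes and phagosomes, held 26.4 to 28.7 CPM in WT and 25.7 to 31.3 CPM in Abca4KO, and its member E230013L22Rik 12.6 to 18.5 and 13.3 to 16.4 CPM. Their log2 fold changes were 0.04 ± 0.11 and -0.07 ± 0.18 (SE), and they share 782 bases. Picalm held 175 to 239 CPM in WT and 171 to 183 CPM in Abca4KO, and 2310010J17Rik 6.07 to 9.42 and 6.91 to 9.76 CPM, with log2 fold changes of -0.17 ± 0.12 and 0.06 ± 0.24 (SE). Both pairs overlapped between genotypes.

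Rab3ip activates the GTPase Rab8 in traffic to the cilium. It held 83.3, 67.4 and 81.8 CPM in WT and 64.7, 59.5 and 64.2 CPM in Abca4KO. No Abca4KO library reached the lowest WT library, at a log2 change of -0.30 ± 0.10 (SE, edgeR adjusted p = 0.639). Its member 4933412E12Rik held 6.13, 11.8 and 9.31 CPM in WT and 5.84, 6.55 and 4.13 CPM in Abca4KO, with an overlap between WT replicate 1 and Abca4KO replicate 2. For the member the log2 fold change was -0.72 ± 0.30 (SE, unadjusted p = 0.0451, adjusted p = 0.706). This was the 1 pair of 69 in which both genes had an unadjusted p under 0.05. Its genes share 1013 bases of span, so any reads from these bases cannot be told apart.

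Scyl2, a protein of clathrin-coated vesicles, held 37.9 to 49.3 CPM in WT and 39.6 to 45.7 CPM in Abca4KO. Its member 1500026H17Rik held 0.367, 0.161 and 0.327 CPM in WT and 0.558, 0.774 and 0.639 CPM in Abca4KO, 3 to 15 counts per library, without overlap. It reached the filter's level of 0.524 CPM in 3 Abca4KO libraries and 0 WT libraries. It therefore entered the test through the genotype where it is high, had to differ, and is given as a description with no test. The 3 counts of WT replicate 2 are at the limit of detection used here.

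The other named pairs hold partners of mixed roles. Aaas, a nuclear pore protein, held 13.2, 18.04 and 16.98 CPM in WT and 15.3, 15.5 and 17.8 CPM in Abca4KO. Its member Gm36246 held 0.628, 1.13 and 1.14 CPM in WT and 0.304, 0.258 and 0.349 CPM in Abca4KO, 5 to 21 counts per library. The member's genotypes were separate and the partner's were not. Gm36246 reached the filter's level in 3 WT libraries and 0 Abca4KO libraries, so it too had to differ, and its values are a description with no test.

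Gm48768 held 8.64, 8.48 and 8.002 CPM in WT and 7.31, 5.62 and 7.44 CPM in Abca4KO, without overlap, at a log2 fold change of -0.30 ± 0.19 (SE, edgeR adjusted p = 0.804). Its partner Galnt4, an enzyme that starts O-linked glycosylation, overlapped (-0.09 ± 0.11). A130014A01Rik held 5.86, 4.56 and 7.19 CPM in WT and 8.58, 7.43 and 7.55 CPM in Abca4KO, also without overlap, at 0.42 ± 0.22 (SE, adjusted p = 0.761). Its partner Zdhhc7, a palmitoyltransferase, was at 0.08 ± 0.08. In these pairs the member's values were separate while the partner's overlapped. The members were named for a small p and the partners were not, so this contrast supports nothing.

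Gm47163 held 0.591 to 0.838 CPM in WT and 0.929 to 1.63 CPM in Abca4KO, at a log2 fold change of 0.81 ± 0.44 (SE), and its partner Shc2, an adaptor of receptor signalling, was at -0.19 ± 0.20. Gm26684 held 0.653 to 1.20 CPM in WT and 1.14 to 1.74 CPM in Abca4KO, at 0.70 ± 0.42 (SE). Its partner Enpp2 held 3206, 2802 and 3420 CPM in WT and 3659, 3510 and 3798 CPM in Abca4KO, without overlap, at 0.22 ± 0.10 (SE, edgeR adjusted p = 0.732). Enpp2 shares bases with Gm26684 and held 381749 counts over the 6 libraries against 131 of the member, and reads from the shared bases cannot be told apart.

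Gm48226 held 5.72 to 7.95 CPM in WT and 7.21 to 8.57 CPM in Abca4KO and overlaps Gphn, which encodes the scaffold of inhibitory synapses gephyrin. F730043M19Rik, paired with Atxn7l1, held 7.54 to 8.86 CPM in WT and 6.44 to 7.58 CPM in Abca4KO. The log2 fold changes were 0.14 ± 0.20 and -0.20 ± 0.18 (SE), and those of the partners -0.12 ± 0.14 and 0.11 ± 0.14. Last, 9330151L19Rik held 9.56 to 14.1 CPM in WT and 11.9 to 14.8 CPM in Abca4KO, at 0.22 ± 0.19 (SE). Its partner by the rule, Gm49383, is listed at 0 in all libraries. The 3 members and the 2 tested partners overlapped between genotypes. Of the 72 tested members, 33 are overlapped by a gene with counts. Among them are also B230354K17Rik by Cdc5l and Spats1, Gm48768 by Poc1b and Gm47163 by Shc2. F730043M19Rik by Gm16267 and 9330151L19Rik by Dnaaf2 are further cases. The overlap is of whole gene spans, so how far it makes the members' counts uncertain is not known.

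**Figure D4:**
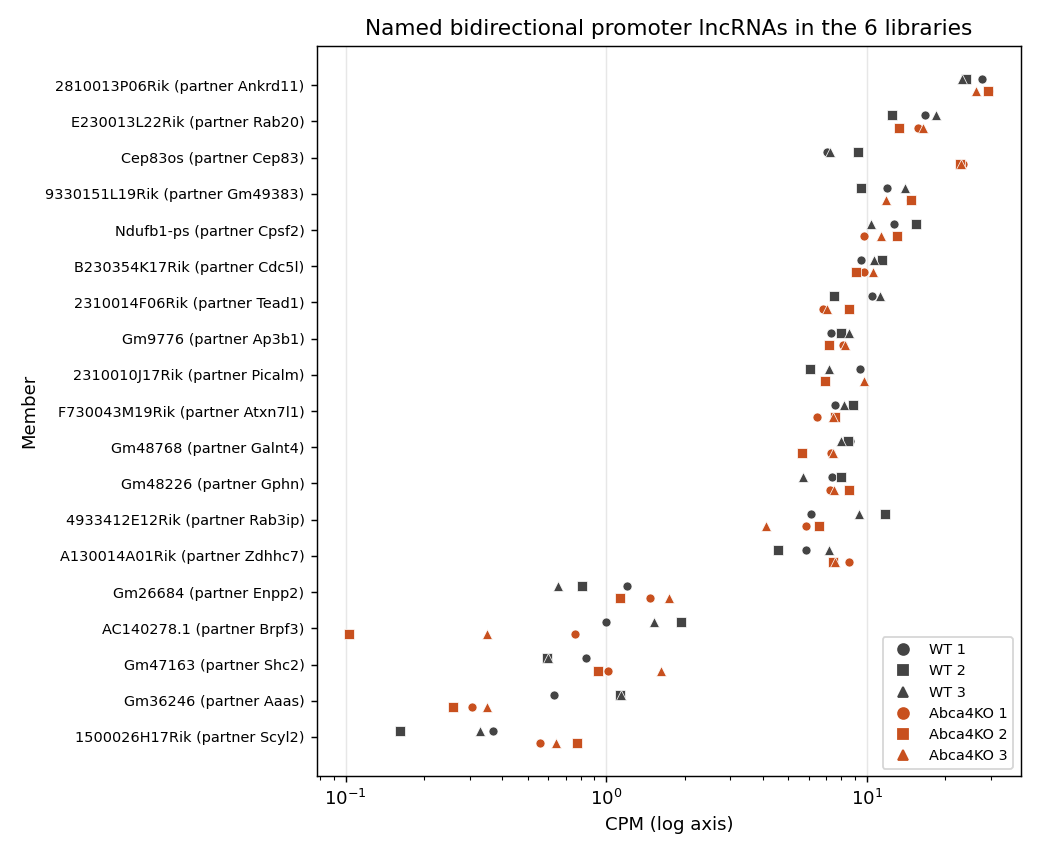
CPM on a log scale of 19 members named by rule, with 1 point per library and colours for the genotypes. Cep83os is the member with the clearest gap, and 6 others also have Abca4KO points wholly above or below the WT points. Members were named in part for a small p, so this count supports nothing. Over all tested genes the share was 12.8%. Gm36246 and 1500026H17Rik, among these 6, passed the filter only through the genotype where they are high.

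Of the 164 partners 148 were tested, and 0 passed the adjusted threshold in edgeR, where 0.0461% of all genes did. DESeq2, which called 106 of 28968 genes, called 1 partner, Dio2, the partner of Gm26512. At an unadjusted p under 0.05 there were 15 partners (10.1%), 3 higher and 12 lower. The share was 7.02% of all tested genes (3.15% higher and 3.87% lower) and 7.54% of protein-coding genes. The genotypes did not overlap for 26 partners (17.6%), 9 with Abca4KO above and 17 below, against 12.8% of all genes (5.93% above and 6.85% below). The log2 fold change was above 0 for 57 (38.5%) and below 0 for 91, with a median of -0.04. It was above 0 for 47.8% of all tested genes and 47.6% of protein-coding genes, each with a median of -0.01. This difference in shares was not tested. These partners are named after their values were seen, as a description. Besides Tead1, Yap1 and Rab3ip, the lower ones were Sorl1, a sorting receptor (457 to 367 CPM in the mean, -0.32 ± 0.08, SE), Arsb, a lysosomal sulfatase (32.8 to 26.2 CPM, -0.32 ± 0.10), Man1a, Aak1, Atf7ip, Usp15, Map3k4, Map3k9 and Ppp1r3b. The 3 higher ones were Dio2, Slc7a5 and Fam219b. Of the 15, 6 had a tested member.

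The log2 fold changes of member and partner had the same sign in 31 of 69 pairs (44.9%), 11 both above 0 and 20 both below 0. Where the bodies shared bases it was 15 of 25 pairs (60.0%), and where they did not, 16 of 44 (36.4%). Among pairs with 5′ ends less than 1000 bases apart it was 29 of 66 (43.9%). Other tested genes within 1000 bases of an opposite-strand protein-coding gene had the same sign in 739 of 1427 pairs (51.8%), other non-coding genes in 188 of 376 (50%) and protein-coding genes in 514 of 984 (52.2%). Of the members and partners in these pairs only Cep83os passed the test in edgeR, and the shares are a description that was not tested.

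**Figure D5:**
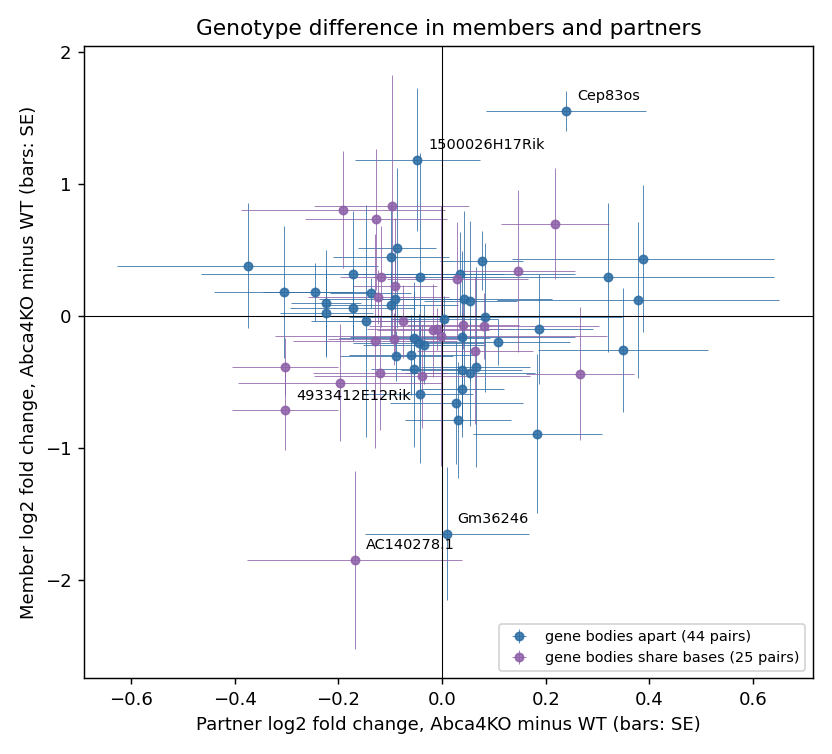
Log2 fold change (Abca4KO minus WT) of the partner on the x axis and of the member on the y axis for the 69 tested pairs, with pairs that share bases marked. Cep83os stands alone at the top near a partner value of 0.24, and 31 pairs lie in the 2 quadrants of equal sign.

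The ratio of member to partner tests an unequal change within a pair. None of the 69 ratios passed limma's adjusted threshold, the smallest adjusted p being the 0.453 of Cep83os, and 7 had an unadjusted p under 0.05, against 6.39% of all 14310 pairs. The 7 include the pairs of 1500026H17Rik and Gm36246, which passed the filter only through the genotype where they are high, so the count supports nothing. AC140278.1 differed from Brpf3 by -1.79 ± 0.52 (SE) on the log2 scale, and it reached the filter's level in 3 WT libraries and 1 Abca4KO library. The 7 also hold 2610306M01Rik with Aak1 and C330013E15Rik with Dazap2, both named after their values were seen. The log2 ratios of the genotypes did not overlap in 14 of the 69 pairs (20.3%), higher in Abca4KO in 6 and lower in 8, against 12.7% of all 14310 pairs. The pairs of 1500026H17Rik, Gm36246, AC140278.1 and Gm5432 are among the 14. Like AC140278.1, Gm5432 reached the filter's level in 3 WT libraries and 1 Abca4KO library. The difference between 20.3% and 12.7% was not tested. The 14310 pairs were not limited to near 5′ ends, so the shares are not like for like.

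The 93 members that were not tested gave few counts to compare. Of the 69 with any count, 17 (24.6%) had counts in 1 genotype only, against 40.7% of all 11712 untested genes with a count. The genotypes did not overlap for 3 (4.35%), against 4.99% of those genes, so this is no result about the members. The 3 were named after their values were seen. The member 4930470G03Rik had 0 counts in the WT libraries and 4, 3 and 3 counts in the Abca4KO libraries, at or near the limit of 3 counts, and it overlaps Zscan26, a gene with 11752 counts. Gm49041 had 10, 8 and 15 counts in WT and 4, 6 and 7 in Abca4KO, and Gm47525 had 5, 6 and 9 in WT and 1, 5 and 2 in Abca4KO. The other untested members were too scarce to compare at this depth.

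A list of 22 divergent or antisense transcripts of eye and neural regulators, or lncRNAs common in these tissues, was set beside the members. It was written with the result of Cep83os known, and Cep83os is its only member of the class. Of the others 20 stand in the table under other classes, and 13 were tested. Of these 6 had a log2 fold change above 0 and 7 below 0, from -0.89 to 0.49, and 0 passed the adjusted threshold or had an unadjusted p under 0.05 (edgeR, smallest adjusted p = 0.846).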

How the data were processed

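Per the labels' protocols, the RNAqueous-Micro kit gave the RPE RNA and the NEBNext Ultra RNA kit the libraries. The authors deposited raw read counts per gene, whole numbers with no normalization. The submitters' processing notes name STAR, HTSeq and build mm10 and give no version. Annotation release and use of strand are not given in the sources used here. From these counts, edgeR 4.0.16 in R 4.3.3 kept genes with filterByExpr (minimum count 10), scaled libraries by TMM and compared 3 Abca4KO with 3 WT libraries by its 2-sided quasi-likelihood test, with Benjamini-Hochberg adjustment over all 17340 tested genes and a threshold of 0.05. CPM use TMM-scaled library sizes. Ratios to partners were tested with limma 3.58.1 on log2 CPM with a prior count of 1. DESeq2 1.42.0 was an alternative, beside other size factors, filters, prior counts, partner rules, a replicate block and each library left out. A fit without both libraries numbered 2 was added after seeing the data.

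The members and lists were chosen with earlier results of these data known. Named members were the 12 with the highest mean CPM, those past the threshold, the 6 per direction with the smallest p, and members in the eye list, each with its partner; 1 such pair is not reported here. The scripts were tested on simulated counts. Abbreviated gene classes are those of the deposited table.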

Additional observations from a re-analysis of the deposited data

How the results depend on the processing

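The number of genes called over the whole table was 8, and it was 106 with DESeq2 and 19 with every gene with a count, and 3 to 11 with each library left out. The count of members called was 1 and lay between 0 and 1 with each library left out. With the replicate number as a block it was 0 (Cep83os adjusted p = 0.0976) and all genes called were 9. The numbers gave correlations of deviations of 0.167, 0.344 and -0.076 between same-numbered libraries, and not every library correlated best with its own number. Without both libraries numbered 2, chosen after the data were seen, Cep83os was called (adjusted p = 0.0227). A mean of at least 1 CPM left 45 members tested. Partners called were 1 with DESeq2. Pairs of the same sign numbered 66 of 137 with every gene with a count, 16 among pairs that share no bases, and 30 to 40 with each library left out. The mean of the library medians of the member level against the partner level was -2.68, and -4.36 without the gene length. The mean summed level of 276 CPM was 249.7 without the most abundant member.

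Of 440 values of 37 named genes under other settings, 420 kept their sign and 20 changed it, all of genes that did not pass the test. Without both libraries numbered 2, the log2 fold changes were -0.000802 for 2310010J17Rik, 0.00929 for B230354K17Rik, 0.0294 for Brpf3, 0.119 for Cdc5l and 0.0382 for Gm9776. With each library left out, they ran from -0.124 to 0.249 for 2310010J17Rik, -0.112 to 0.0995 for Aaas, -0.0897 to 0.0589 for Ap3b1, -0.0827 to 0.123 for Cdc5l, -0.152 to 0.015 for Cpsf2, -0.218 to 0.049 for E230013L22Rik, -0.0759 to 0.0426 for Gm9776, -0.0373 to 0.106 for Rab20 and -0.13 to 0.066 for Scyl2. The causes were not tested.

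Limits: low counts leave most members untested or with wide intervals, 33 of 72 tested members are overlapped by a gene with counts, and 3 mice a genotype from 1 line each measure line and genotype together.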

Other observations

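Thyroid hormone genes stand among the pairs. Dio2 encodes the deiodinase that makes active thyroid hormone, and Slc7a5 a subunit of an amino acid transporter that also carries thyroid hormone. These values were chosen after they were seen. Dio2 held 8.48, 7.03 and 8.55 CPM in WT and 13.2, 15.9 and 15.9 CPM in Abca4KO, without overlap. On the log2 scale the difference was 0.90 ± 0.16 (SE), and its adjusted p was 0.369 in edgeR and 0.0134 in DESeq2. Over all genes edgeR called 8 of 17340 and DESeq2 106 of 28968. Its member Gm26512 had 1, 0 and 3 counts in WT and 1, 10 and 6 in Abca4KO. Gm26512 shares 238 bases with Dio2, which held 1291 counts, so reads from these bases cannot be told apart. Slc7a5 was at 0.30 ± 0.09 (SE, edgeR adjusted p = 0.616), and its member BC048644 had 4 counts in all. Dio3os, whose partner Dio3 encodes the deiodinase that inactivates thyroid hormone, held 0.157, 0.591 and 1.03 CPM in WT and 1.47, 0.877 and 0.872 CPM in Abca4KO, with overlap (0.85 ± 0.66, SE). Dio3 had 1, 0 and 4 counts in WT and 27, 14 and 2 in Abca4KO and was not tested.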
